A study of Homo sapiens with 4 samples.

Results

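Natural antisense entries are genes whose symbol ends in AS, alone or with a number, in most cases after the name of the gene on the opposite strand. In the table of gene levels from TPC1 cells, an established human papillary thyroid cancer line, 305 of 13165 entries (2.32%) carry such a name, and these were set beside the sense gene named before the ending. RNA was sequenced from TPC1-Vector cells, which carry the empty pQCXIP retroviral vector, and from TPC1-INAVA cells, which carry the same vector with full-length INAVA cDNA. Both lines were grown in DMEM with serum and selected with 0.5 μg/mL puromycin, and each group has 2 libraries. The comparison addresses which transcripts differ when INAVA, a regulator of innate immune signalling that the table lists as C1orf106, is overexpressed. The authors combined the libraries of a group, so each gene has 1 FPKM value per group (a level per length of transcript and per sequencing depth). With 1 value per group, no SD or replicate check could be computed and no test was run here, the depth is unknown, and every difference is a description of these 2 values. The labels do not say whether the libraries came from separate cultures.

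Antisense transcription is common in the human genome. Many antisense transcripts start close to the promoter of the sense gene and run away from it on the other strand, whereas others are transcribed across the exons or introns of their partner. Individual antisense RNAs are known to recruit chromatin modifiers, to pair with the sense messenger RNA or to act far from their own locus, and for many no function is established.

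The following sequences come from pairs on which the results turn. In the first, an exon of the antisense transcript is complementary to coding sequence of its partner, and 150 bases are given in the antisense direction from GENCODE release 29 on GRCh38, all in lower case because no motif is marked. JMJD1C-AS1 at chr10:63465495-63465644, plus strand, covers part of JMJD1C.
JMJD1C-AS1: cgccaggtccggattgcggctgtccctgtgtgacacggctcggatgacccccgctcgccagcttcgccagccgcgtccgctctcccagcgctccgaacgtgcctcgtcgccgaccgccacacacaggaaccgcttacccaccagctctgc

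Of the 305 antisense entries, 188 had a promoter sequence in RefSeq (GRCh38.p14, 250 bases before to 50 after the first listed start). GGGCGG, read on both strands, was found in 99 of these 188 promoters (52.7%), against 157 of 229 promoters of sense partners (68.6%) and 6851 of 9753 promoters of all genes in the table (70.2%). For CCAAT the shares were 33.5% for antisense entries and 36.8% for all genes, for TATAAA 6.91% and 5.36%, and for TGANTCA 5.32% and 4.61%. Median GC content was 64.0% in antisense promoters and 65.3% in all promoters. These matches describe the letters in the windows only. Windows, or parts of them, are shown for 3 genes from pairs described further on, with GGGCGG or its reverse complement in capitals. The JMJD1C window (chr10:63465978-63466227, minus strand) ends before an internal RefSeq start of JMJD1C. It was chosen because it lies within the JMJD1C-AS1 gene. For UGDH-AS1 only the longest stretch free of protein-coding exons is shown (chr4:39527619-39527798, plus strand). This stretch stops before the start of UGDH-AS1 and has 3 matches. The PPP3CB-AS1 window (chr10:73495502-73495801, plus strand) has 5, some of which overlap.
JMJD1C: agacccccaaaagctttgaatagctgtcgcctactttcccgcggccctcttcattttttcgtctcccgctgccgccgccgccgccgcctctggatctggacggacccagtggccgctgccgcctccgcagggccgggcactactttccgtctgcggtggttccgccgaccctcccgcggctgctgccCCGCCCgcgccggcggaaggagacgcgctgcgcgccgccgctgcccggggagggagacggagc
UGDH-AS1: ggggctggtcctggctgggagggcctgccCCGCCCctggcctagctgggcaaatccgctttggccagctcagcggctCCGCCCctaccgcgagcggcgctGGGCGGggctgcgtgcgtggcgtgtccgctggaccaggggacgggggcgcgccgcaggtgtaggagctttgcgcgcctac
PPP3CB-AS1: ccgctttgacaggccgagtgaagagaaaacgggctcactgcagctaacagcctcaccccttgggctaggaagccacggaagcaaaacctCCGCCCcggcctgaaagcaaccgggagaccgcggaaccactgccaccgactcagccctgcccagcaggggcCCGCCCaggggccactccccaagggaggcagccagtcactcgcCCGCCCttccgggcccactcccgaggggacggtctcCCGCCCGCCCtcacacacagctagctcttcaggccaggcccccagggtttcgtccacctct

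INAVA had 7.96 FPKM in the vector group against 123 FPKM in TPC1-INAVA, which follows the labels. Of 8 thyroid markers only PAX8 and FOXE1 have a row in the table, and their summed level was 65.3 FPKM with the vector and 61.5 FPKM with INAVA. The other 6, among them the differentiation markers TG, TSHR and SLC5A5, have none. Of 5 epithelial markers only KRT8 (23.4 and 10.5 FPKM) and KRT18 (140 and 212 FPKM) are listed, with sums of 164 and 222 FPKM. Of 9 markers of immune, endothelial, stromal and C cells only CD68 (5.76 and 8.67 FPKM) and COL1A1 (0.937 and 0.571 FPKM) are listed, with sums of 6.70 and 9.24 FPKM. The part of these differences in the antisense values was not tested. The table lists genes that reached at least 0.278 FPKM in one of the groups.

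The antisense entries were weakly expressed. Their median was 1.09 FPKM in TPC1-Vector cells and 1.04 FPKM in TPC1-INAVA cells, compared with 10.0 FPKM in each group for all genes. Their means over the groups ran from 0.209 to 303 FPKM, and none was listed at 0. A mean of at least 0.5 FPKM was reached by 238 entries (78.0%), against 12305 of all genes (93.5%), and 67 entries fell under this filter. At least 1 FPKM was reached by 159 entries and at least 10 FPKM by 25.

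**Figure D1:**
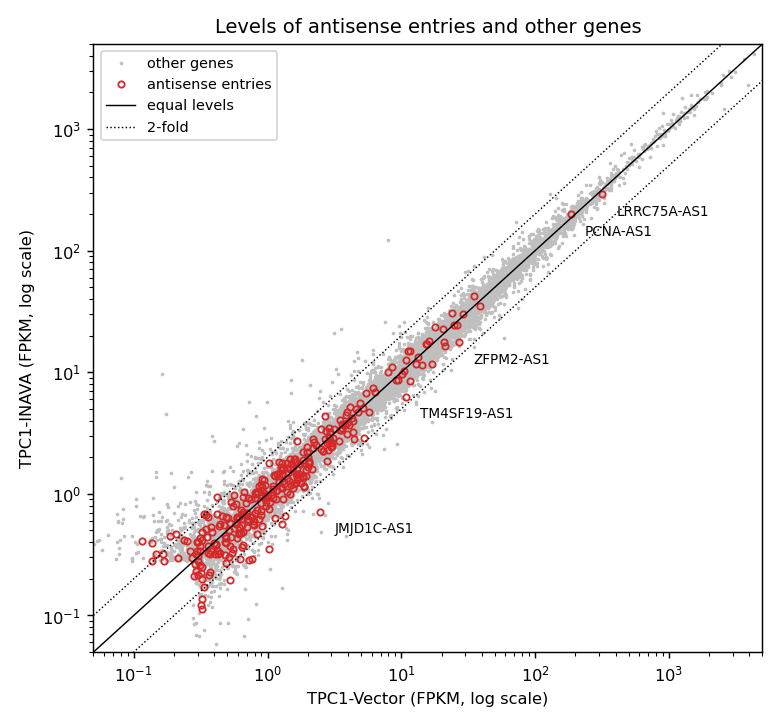
FPKM in TPC1-Vector (horizontal, log scale) and TPC1-INAVA (vertical, log scale) for the 305 antisense entries (red circles) and other genes above 0 in both groups (grey points; the few genes beyond the axes are not drawn). The solid line marks equal levels and the dotted lines plain 2-fold ratios; antisense entries lie mostly at the low end, and JMJD1C-AS1 lies below the lower dotted line.

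LRRC75A-AS1 was the most abundant antisense entry, with 316 FPKM in TPC1-Vector cells and 290 FPKM in TPC1-INAVA cells. Pairs of values are given in this order throughout. Its sense gene has no row in the table. PCNA-AS1 was next, with 184 and 199 FPKM, above the 146 and 144 FPKM of PCNA, the sliding clamp of DNA replication. The libraries are not stated to keep strand. Where exons overlap, reads of a gene and of its antisense partner therefore cannot be told apart, and this holds for every such pair below. Whether exons overlap is unknown for entries without a usable GENCODE release 29 model. Among these are PCNA-AS1, HIF1A-AS2, FBXO22-AS1, LLPH-AS1 and MMP24-AS1. HIF1A-AS2 was at 35.2 and 42.0 FPKM, beside 75.6 and 82.5 FPKM for HIF1A, the oxygen-regulated subunit of hypoxia-inducible factor 1. In both genes of this pair the level was slightly higher in TPC1-INAVA. FGD5-AS1 was at 38.5 and 35.1 FPKM. WAC-AS1 was at 28.7 and 30.0 FPKM, and OIP5-AS1 at 26.0 and 24.3 FPKM. SVIL-AS1, opposite the gene of the actin-binding protein supervillin, was at 24.9 and 24.4 FPKM, more than the 9.57 and 8.99 FPKM of SVIL. These abundant entries differed between the groups by at most 0.25 on the log2 scale. The remaining 3 of the 10 most abundant were ZFPM2-AS1 (below), FBXO22-AS1 and OTUD6B-AS1. FBXO22-AS1 was at 23.9 and 30.6 FPKM, and FBXO22, an F-box subunit of a ubiquitin ligase, was at 34.5 and 43.0 FPKM, log2 differences of 0.35 and 0.32. OTUD6B-AS1 was at 20.5 and 22.8 FPKM, and the deubiquitinase gene OTUD6B was at 21.1 and 25.1 FPKM.

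Few antisense entries differed much between the groups. Differences are given as log2(FPKM + 0.5) in TPC1-INAVA minus that in TPC1-Vector, which understates the change of weak genes. Of the 238 entries past the filter, 109 were higher and 129 lower in TPC1-INAVA. The share that was higher, 45.8%, compares with 50.8% of all 12305 genes. None was at least 2-fold higher, while among all genes 0.61% were. Only JMJD1C-AS1 (0.42%) was at least 2-fold lower, against 0.244% of all genes. These are counts of 0 and 1, and they rest on the value added before the logarithm. The median difference was -0.027, with quartiles of -0.19 and 0.18, and the differences ranged from -1.28 to 0.64. For all genes the median was 0.0033 and the quartiles were -0.12 and 0.13. A difference of -0.5 or lower was seen for 14 antisense entries (5.88%, against 2.36% of all genes), and one of 0.5 or higher for 4 (1.68%, against 3.15%). With a pseudocount of 0.1 in place of 0.5, 5 entries (2.1%) were at least 2-fold lower and none at least 2-fold higher, against 0.471% and 0.983% of all genes. By the plain ratio of the FPKM values, added after seeing the data, 6 entries (2.52%) were at 0.5 or less and 2 (0.84%) at 2 or more, against 0.569% and 1.25% of all genes. The 6 were JMJD1C-AS1, SRP14-AS1, IDI2-AS1, SAPCD1-AS1, NAPA-AS1 and NHS-AS1, and the 2 were TAF1A-AS1 and MSC-AS1. All 8 had a mean under 10 FPKM. Of the 213 antisense entries from 0.5 to 10 FPKM, 2.82% were at 0.5 or less and 0.939% at 2 or more. Of all 5698 genes in this range, 1.05% were at 0.5 or less and 2.35% at 2 or more. Without replicates, these counts have no error. Of the 67 antisense entries under the filter, 6 (8.96%) had a plain ratio of at least 2 and 5 (7.46%) a ratio of 0.5 or less, against 13.4% and 9.07% of all 860 genes under the filter. Fewer cells that make a transcript and less of it per cell cannot be told apart in these bulk samples.

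The size of the differences was also read by level. Between 0.5 and 1 FPKM the median size of the difference was 0.18 for 79 antisense entries and 0.18 for 883 genes of all kinds. From 1 to 10 FPKM it was 0.20 for 134 antisense entries and 0.14 for 4815 genes, and from 10 FPKM upward it was 0.17 for 25 antisense entries and 0.10 for 6607 genes. The size thus fell with level for all genes, but differed little between the levels for antisense entries. The added 0.5 FPKM shrinks differences most at the lowest levels, and levels within a range were not matched between the sets. The part of either in this contrast was not tested.

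A sense gene was listed for 271 of the 305 entries, and 207 pairs had both genes past the filter, with 204 distinct sense genes. In these pairs the antisense entry had a median of 1.52 FPKM and the sense gene 15.0 FPKM, and the median antisense level was 10.8% of the sense level. The antisense entry was below its partner in both groups in 188 pairs, above it in both in 17, and in 2 pairs the order differed between the groups. In 97 pairs it was under 10% of the sense level. Sense genes differed less than their antisense partners, with a median size of 0.11 against 0.20 on the log2 scale. Levels were not matched in this contrast, and the part of level in it was not tested. Sense partners of entries past the filter had a median difference of -0.019, and 95 were higher and 109 lower in TPC1-INAVA. None of them was at least 2-fold higher, against 0.61% of all genes, and 1, JMJD1C, was at least 2-fold lower, against 0.244%.

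Antisense and sense genes differed in the same direction in 122 of 207 pairs (58.9%). Both were higher in TPC1-INAVA in 53 pairs and both lower in 69. The antisense entry was higher and the sense gene lower in 43 pairs, and the reverse held in 42. Among 1409 pairs of other genes that share a deposited position, 754 (53.5%) had the same direction. Symbols starting with MIR or SNOR were left out of these, and a gene could enter several pairs. Across the 207 pairs, Pearson's r between antisense and sense differences was 0.35 and Spearman's rho 0.27, and r was 0.26 without JMJD1C-AS1. All pairs come from the same libraries, and some share reads, so these values are descriptions. The table gives 131 of the pairs the same position for both genes, as it does in the 1409 pairs of other genes. Of these 131 pairs, 78 (59.5%) had the same direction. Of the 76 pairs with separate positions, 44 (57.9%) did. The median of the antisense minus the sense difference was 0.014. When both genes had to reach 1 FPKM, 75 of 133 pairs (56.4%) had the same direction. Of these 133 pairs, only 5 had a difference of at least 0.3 in both genes, 4 in the same direction and 1, UGDH-AS1 with UGDH, in opposite directions.

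**Figure D2:**
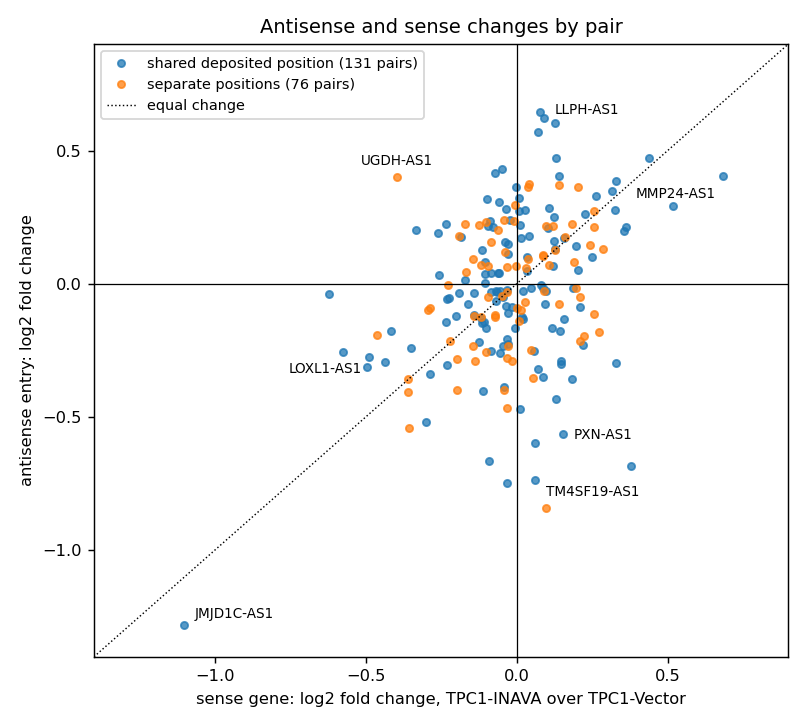
Log2 difference between TPC1-INAVA and TPC1-Vector of the sense gene (horizontal) and of its antisense entry (vertical) for 207 pairs, coloured by whether the table gives both genes the same position. Most points lie within 0.5 of 0 on both axes, JMJD1C-AS1 with JMJD1C stands alone at the lower left, and the antisense axis is the wider one.

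The arrangement of the genes was taken from GENCODE release 29 on GRCh38, in which models of both genes were found for 254 entries. All 254 lay on the strand opposite to their partner. In 163 the nearest annotated transcript starts were within 1 kb of each other (head to head), with a median distance of 113 bases. Internal starts counted, so this class also holds entries that lie within their partner or overlap its exons. EML2-AS1, with 95.0% of its exonic bases overlapping, is an example. Another 70 overlapped exons of the partner without such close starts, 19 overlapped it only outside its exons, and 2 did not overlap it. Exonic overlap of any size was found for 180 entries, where it covered a median of 12.8% of the antisense exonic bases, and it exceeded 50% in 17. The arrangement was known for 171 of the 207 pairs past the filter. The same direction was seen in 69 of 117 head-to-head pairs (59.0%), with r = 0.44 and rho = 0.33, or r = 0.31 and rho = 0.32 without JMJD1C-AS1. It was seen in 25 of 45 pairs with exonic overlap but no such close starts (55.6%), with r = 0.088 and rho = 0.076. In the 50 pairs without any exonic overlap, whose annotated exons share no bases, 32 (64%) had the same direction, with r = 0.33 and rho = 0.34. In the 36 pairs where at least 25% of the antisense exonic bases overlapped, 23 (63.9%) did, with r = 0.56 and rho = 0.31, or r = 0.28 and rho = 0.25 without JMJD1C-AS1. The differences between these classes were not tested.

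Among pairs with both genes at a mean of 1 FPKM or more, JMJD1C-AS1 and JMJD1C had the largest common difference. JMJD1C encodes a nuclear protein of the jumonji family, related to histone demethylases. JMJD1C-AS1 (chr10:63465229-63466563, plus strand) had 2.46 FPKM in TPC1-Vector cells but 0.715 FPKM in TPC1-INAVA cells, a log2 difference of -1.28. JMJD1C was at 12.8 and 5.72 FPKM, a log2 difference of -1.10. Its start lies 652 bases from the nearest JMJD1C transcript start, which is an internal one, and 387 of its 1335 exonic bases overlap exons of JMJD1C, among them the stretch printed above. The other genes within 5 Mb had a median difference of -0.18, and less this value the differences were -1.10 for JMJD1C-AS1 and -0.92 for JMJD1C.

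At this level, the 5 pairs with the next largest common differences were all lower in TPC1-INAVA. WDFY3-AS2 was at 1.88 and 1.14 FPKM, a log2 difference of -0.54, and WDFY3, which acts in the selective autophagy of protein aggregates, was at 12.4 and 9.56 FPKM, a difference of -0.36. Their starts are 402 bases apart and no exons overlap. BACE1-AS was at 1.87 and 1.15 FPKM and BACE1, the β-secretase that cleaves amyloid precursor protein, at 11.5 and 9.25 FPKM, differences of -0.52 and -0.30. In this pair 40.0% of the antisense exonic bases overlap the partner. LOXL1-AS1 was at 2.82 and 2.28 FPKM and LOXL1, a lysyl oxidase-like enzyme of elastic fibres, at 4.60 and 2.92 FPKM, differences of -0.25 and -0.58. Here the sense gene differed more than the antisense entry. PPP3CB-AS1 was at 1.41 and 1.03 FPKM, and PPP3CB, a catalytic subunit of the phosphatase calcineurin, was at 28.5 and 20.1 FPKM, differences of -0.31 and -0.50. The genes around this pair had a median difference of -0.31, the same as that of the antisense entry. NHS-AS1 was at 1.34 and 0.660 FPKM (-0.67) and NHS at 4.85 and 4.52 FPKM (-0.09), so nearly all of the common difference came from the antisense entry, which lies within NHS without overlapping its exons.

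**Figure D3:**
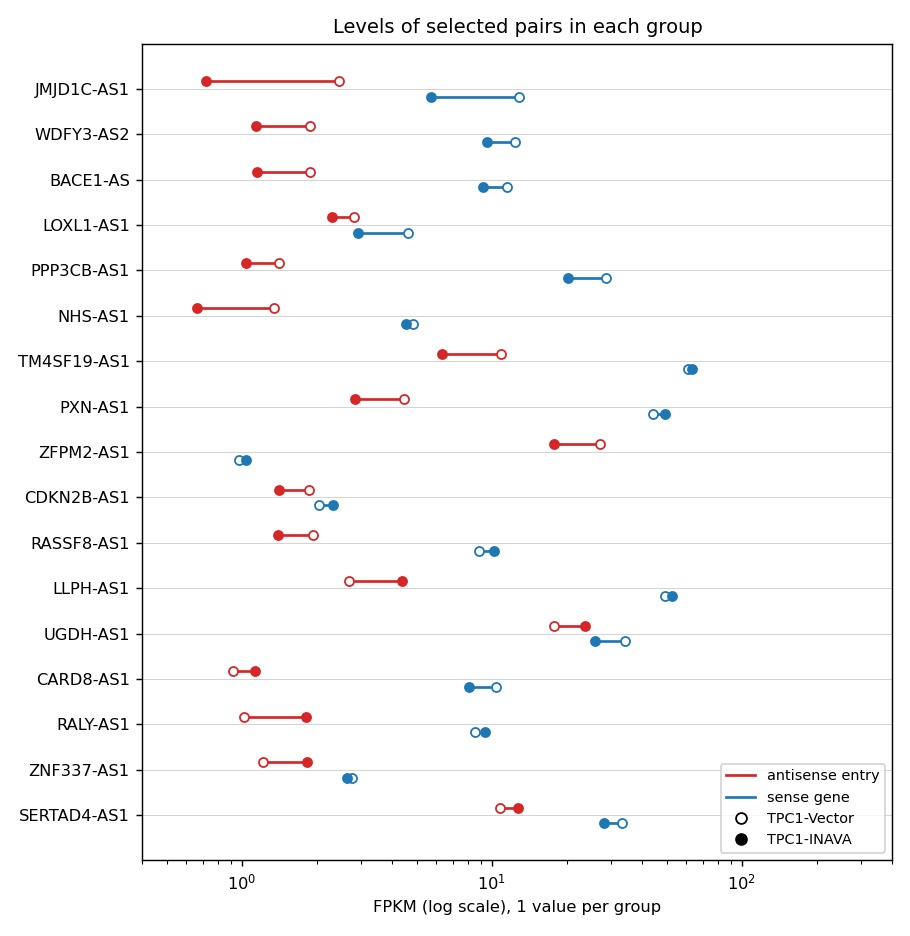
FPKM (log scale) of 17 antisense entries (red) and their sense genes (blue) in TPC1-Vector (open circles) and TPC1-INAVA (filled circles), 1 value per group. The first 5 pairs from the top moved together, TM4SF19-AS1 to RASSF8-AS1 were lower while their partners were slightly higher, and the lines of UGDH-AS1 and UGDH run in opposite directions.

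In another group of pairs the antisense entry was lower in TPC1-INAVA and the sense gene was not. TM4SF19-AS1 was at 10.8 and 6.31 FPKM, a log2 difference of -0.74, while TM4SF19, a member of the transmembrane 4 L6 family, was at 60.7 and 63.3 FPKM (0.06). Of its exonic bases 25.2% overlap exons of TM4SF19. PXN-AS1 was at 4.43 and 2.84 FPKM (-0.56), and PXN, which encodes the focal adhesion adaptor paxillin, was at 44.2 and 49.1 FPKM (0.15). For PXN-AS1 the overlap is 38.6%. ZFPM2-AS1 was at 27.0 and 17.6 FPKM (-0.60), far above ZFPM2, a GATA cofactor, at 0.976 and 1.04 FPKM (0.06). The ZFPM2 difference changed sign to -0.02 less that of its neighbours. CDKN2B-AS1, also known as ANRIL, was at 1.85 and 1.40 FPKM (-0.30), and the cyclin-dependent kinase inhibitor gene CDKN2B was at 2.04 and 2.31 FPKM (0.15). RASSF8-AS1 was at 1.93 and 1.40 FPKM (-0.36), beside 8.91 and 10.2 FPKM (0.18) for RASSF8. With NHS-AS1, these were the 6 pairs at 1 FPKM or more in which the antisense difference fell furthest below the sense one.

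Antisense entries with a difference above that of their partner were led by UGDH-AS1, at 17.7 FPKM with the vector and 23.6 FPKM with INAVA, a log2 difference of 0.40. UGDH, which makes UDP-glucuronate for glycosaminoglycans, was at 34.0 and 25.7 FPKM, a difference of -0.39. Less the median of genes within 5 Mb, the differences were 0.50 for UGDH-AS1 and -0.29 for UGDH. The starts lie 104 bases apart, and 10.5% of the antisense exonic bases overlap UGDH. CARD8-AS1 was at 0.917 and 1.13 FPKM (0.20), while CARD8, a sensor of inflammasome signalling, was at 10.4 and 8.13 FPKM (-0.33). SERTAD4-AS1 was at 10.8 and 12.7 FPKM (0.22), with SERTAD4 at 33.2 and 28.2 FPKM (-0.23). In these 3 pairs the partners differed in opposite directions. ZNF337-AS1 was at 1.22 and 1.82 FPKM (0.43), and the zinc finger gene ZNF337 at 2.75 and 2.64 FPKM (-0.05). LLPH-AS1 was at 2.67 and 4.39 FPKM (0.62) and LLPH at 49.2 and 52.4 FPKM (0.09). RALY-AS1 was at 1.02 and 1.81 FPKM (0.60), and the RNA-binding protein gene RALY at 8.56 and 9.40 FPKM (0.13). For LLPH and RALY the sense gene was also slightly higher, by much less than its antisense partner.

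Of 33 antisense and host RNAs with a literature of their own, 13 have a row among the antisense entries. Beside those above, MMP24-AS1 was at 11.2 and 15.0 FPKM, a log2 difference of 0.40, and MMP24, a membrane-type matrix metalloproteinase, was at 0.449 and 1.02 FPKM, a difference of 0.68. Both were higher in TPC1-INAVA, and their summed difference was second to that of JMJD1C-AS1 and JMJD1C among the named pairs, but the mean of MMP24 was under 1 FPKM. ZEB1-AS1 was at 1.63 and 1.81 FPKM (0.12), while ZEB1, a transcription factor of epithelial-mesenchymal transition, was at 10.7 and 10.4 FPKM (-0.04). GAS6-AS1 was at 1.14 and 1.40 FPKM (0.22), and HOXA-AS2 at 0.908 and 1.05 FPKM. TP73-AS1 was at 1.72 and 1.46 FPKM (-0.18), and MCM3AP-AS1 at 2.60 and 2.27 FPKM (-0.16). FOXD2-AS1 was at 2.05 and 1.81 FPKM. ZNRD1-AS1, at 0.423 and 0.322 FPKM, was under the filter. None of these 13 was at least 2-fold higher or lower, against 0.61% and 0.244% of all genes past the filter.

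Genes near to each other on a chromosome can differ together, so each antisense entry was set beside the median difference of other genes of at least 1 FPKM within 5 Mb, which could be computed for 230 of the 238. For 215 entries this median was within 0.2 of 0. On chromosome 10, 8 entries lay among genes with medians from -0.34 to -0.28, and all 8 were lower in TPC1-INAVA, with a median of -0.33. They were DNMBP-AS1, NUTM2A-AS1, NUTM2B-AS1, PPP3CB-AS1, RPARP-AS1, TNKS2-AS1, ZNF503-AS2 and ZSWIM8-AS1. The most abundant were NUTM2A-AS1, at 21.2 and 16.5 FPKM, and NUTM2B-AS1, at 17.1 and 11.7 FPKM. On chromosome 20, 5 entries lay among genes with medians from 0.34 to 0.37, and these did not follow one direction. GNAS-AS1 (0.29) and UCKL1-AS1 (0.47) were higher, whereas ADNP-AS1 (-0.16), OSER1-AS1 (-0.21) and SLCO4A1-AS1 (-0.12) were lower. Of their 5 sense genes, 4 were higher, with a median of 0.21, among them GNAS, the stimulatory G protein α subunit, at 365 and 523 FPKM. On chromosome 3, KLHL6-AS1 (0.07) and LPP-AS2 (0.05) were slightly higher among genes with medians of -0.30 and -0.23. The entries of this paragraph were chosen by their position, after the values were seen.

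**Figure D4:**
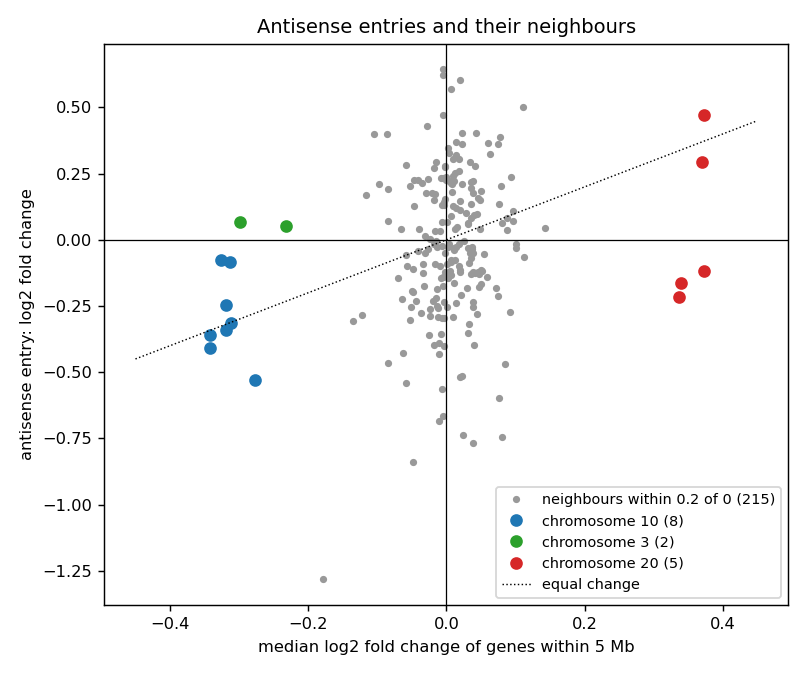
Median log2 difference of genes within 5 Mb (horizontal) and log2 difference of the antisense entry (vertical) for 230 entries past the filter; coloured points have a neighbour median of at least 0.2 in size. The 8 entries on chromosome 10 lie below 0, the 5 on chromosome 20 lie on both sides of it, and most others spread vertically around a neighbour median near 0.

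Other classes, named as noncoding, were set beside the antisense entries. The antisense entries were chosen by symbol alone, and GENCODE release 29 gives NCBP2-AS2 among them as protein-coding. Of 139 entries named LINC, for long intergenic noncoding RNA, 93 passed the filter, of which 41 were higher and 52 lower, with a median difference of -0.07 and a range from -0.76 to 0.76. None was at least 2-fold higher or lower, against 0.61% and 0.244% of all genes. Of 15 intronic or overlapping transcripts (symbols in IT or OT), 8 passed the filter, 5 higher and 3 lower, with a median of 0.25.

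Genes that process or sense antisense and double-stranded RNA were also examined, since their products act on such transcripts. Of a list of 38, 37 had a row and all 37 passed the filter, 19 higher and 18 lower in TPC1-INAVA. Their median difference was 0.02. No gene of the list was at least 2-fold higher or lower, against 0.61% and 0.244% of all genes. The RNA-editing enzyme gene ADAR was at 74.3 and 69.1 FPKM, and DICER1, which cuts double-stranded RNA, was at 12.8 and 11.5 FPKM. The largest differences were those of STAU1, a double-stranded RNA-binding protein, at 57.5 and 77.8 FPKM (0.43), EXOSC5, a subunit of the RNA exosome, at 16.3 and 22.0 FPKM (0.42), and EXOSC1, another exosome subunit, at 32.6 and 24.4 FPKM (-0.41). The other exosome subunits on the list differed by 0.20 or less in size. The differences of this list were not set beside those of neighbouring genes.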

How the data were processed

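Each gene has 1 FPKM value per group in the table the authors deposited, with their own log2 ratio, direction, p-value and q-value for the comparison, which were not used. Per the labels, CASAVA, Cufflinks 2.1.1, Cuffdiff and hg38 were used. The aligner, the annotation and the strand setting are not given in the sources used here. The labels name a NEBNext Ultra kit, the study's methods a VAHTS mRNA-seq kit, and the HiSeq model also differs between the records. The deposited values carry neither replicates nor depth.

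Here, 0.5 FPKM was added before log2, a gene was kept when its 2 values averaged 0.5 FPKM or more, and a fold of 2 was used as a description. Sense genes were matched by exact symbol, arrangement by GENCODE release 29 models and promoters by RefSeq symbols. GENCODE models whose identifier now carries another symbol were left out. Named genes were entries past a fold of 2 with 1 FPKM or more in either group, the 10 with the highest mean, and, among pairs at 1 FPKM or more, the 6 with the largest difference between partners in each direction and the 6 with the largest common difference, plus a list of known antisense RNAs and INAVA. Members, lists and rules were chosen with earlier results of these data known. Other genes were named after their values were seen. Scripts (pandas 2.3.3 and numpy 2.4.6 under Python 3.11.15, with scipy 1.17.1; figures by matplotlib 3.10.9) were tested on simulated data. Alternatives were pseudocounts of 0.1 and 1, no filter, a stricter filter of 1 FPKM, median-of-ratios scaling, quantile normalization, subtraction of neighbours within 5 Mb and pairs with separate positions.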

Additional observations from a re-analysis of the deposited data

How the results depend on the processing

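The number of antisense entries at least 2-fold lower rose from 1 to 5 with a pseudocount of 0.1 (IDI2-AS1, JMJD1C-AS1, NAPA-AS1, SAPCD1-AS1 and SRP14-AS1) and to 6 by plain ratio without a pseudocount, where 2 were at least 2-fold higher. Under each other alternative run it stayed at 1, with none at least 2-fold higher. The number of pairs with the same direction fell from 122 to 75 with a mean of at least 1 FPKM and to 44 among pairs with separate positions, since fewer pairs (133 and 76) entered, and was 157 of 271 without the filter. Less the neighbours of each gene, it was 125 of 199 (62.8%), with r = 0.32 and rho = 0.28. The median antisense difference ranged from -0.041 to -0.022 and that of sense partners from -0.031 to -0.018. The median difference within pairs ranged from -0.0011 with quantile normalization to 0.031. JMJD1C-AS1 ranged from -1.65 with a pseudocount of 0.1 to -1.01 with 1. The median of all genes moved by -0.0096 with quantile normalization and by less in size under the other settings. Of the named genes, only ZFPM2 changed sign, less its neighbours. Plain ratios, subtracting neighbours within pairs and leaving JMJD1C-AS1 out of the correlations were chosen after seeing the data. No paired analysis was possible because the table has 1 value per gene and group. For the same reason limma and leaving out each library were not run.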

Other observations

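Some antisense entries under the filter had plain TPC1-INAVA to TPC1-Vector ratios past 2-fold. MNX1-AS1 was at 0.116 and 0.413 FPKM, a ratio of 3.57, and its partner MNX1, a homeobox gene, was at 0.340 and 0.666 FPKM. RGMB-AS1 was at 0.136 and 0.392 FPKM, and RGMB, a co-receptor of bone morphogenetic proteins, was at 9.58 and 13.3 FPKM. Both genes of these pairs were higher in TPC1-INAVA. PLCE1-AS1 was at 0.327 and 0.113 FPKM and the phospholipase gene PLCE1 at 2.72 and 1.82 FPKM, both lower. In contrast, TGFB2-AS1 was at 0.526 and 0.196 FPKM while the growth factor gene TGFB2 was at 14.2 and 15.2 FPKM, and IL10RB-AS1 was at 0.147 and 0.321 FPKM while the cytokine receptor gene IL10RB was at 33.2 and 24.2 FPKM. At these levels the number of reads behind a ratio is unknown. These genes were chosen after their values were seen.

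Of the entries with no listed sense gene, CCDC183-AS1 had the lowest difference, with 5.27 FPKM in TPC1-Vector cells and 2.89 FPKM in TPC1-INAVA cells, a log2 difference of -0.77. EPB41L4A-AS1, which exceeds its partner, was at 8.55 and 11.1 FPKM (0.36), while EPB41L4A was at 0.518 and 0.544 FPKM. PAX8-AS1, opposite the thyroid transcription factor gene PAX8, was at 12.9 and 11.7 FPKM (-0.14), and PAX8 was at 60.1 and 55.7 FPKM (-0.11).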
